A study of Mus musculus with 4 samples.

Results

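Clustered distal regions are stretches of open chromatin that lie close to one another and away from the ends of protein-coding genes. Peaks of 4 ATAC-seq lists on chromosomes 1 to 19 and X were merged into 15313 regions. Of these, 11994 were called in at least 2 lists, and 4958 of those lay more than 1 kb from the start and the end of every protein-coding gene (GRCm38). Distal regions separated by gaps of at most 12.5 kb were chained, and chains of at least 3 regions were kept. This left 343 regions in 91 chains, while 866 distal regions formed 433 pairs and 3749 stood alone. The members were chosen by the peak calls in the 4 lists, so their number, spacing and recurrence in at least 2 lists are descriptions of the choice.

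The cells were G1ER, a mouse erythroblast line that descends from Gata1-null cells and carries GATA1 fused to an estrogen receptor domain. Wild-type and Chd7-/- G1ER cells, both grown with EPO and SCF and with no treatment recorded, gave 2 libraries each of 50000 cells. The label of time reads 1 h for both libraries numbered 1 and 2 h for both numbered 2. Nothing in the labels says that replicates were separate cultures, so p-values measure a spread that may be technical, and both knockout libraries carry 1 code, so genotype and clone cannot be told apart.

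ATAC-seq cuts open DNA with a transposase, and its peaks away from gene starts mark candidate enhancers, insulators and other regulatory elements. Groups of closely spaced enhancers are known around genes that define a cell type, and stitching neighbouring elements into one unit is a common way to find them. Accessibility alone does not tell an enhancer from another kind of open region. CHD7, the protein missing in the knockout cells, is a chromodomain helicase that moves nucleosomes and is found at enhancers in several cell types.

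Printed sequences come from RefSeq windows (GRCm38.p6) of the 250 bases before an annotated transcript start, because 38 members in 29 chains overlapped such a window, 27 with a start of a protein-coding gene and 13 with a start of a long non-coding RNA. These starts lie inside genes or between them, since the rule removed regions at the outer gene ends. Such an overlap was found at 11.1% of members, against 16.3% of distal regions in pairs or alone. The 6 windows below were chosen after their values were seen. Cirbp is the strongest member with such a window (chr10:80167589-80167838, plus strand). Ubash3b shows AGATAA, the core letters bound by GATA factors, at 2 places (chr9:41079507-41079756, minus strand). Pisd is in the member with the smallest p between genotypes (chr5:32746343-32746592, minus strand). Gm40374 lies at the Pik3cg end of the longest chain (chr12:32143117-32143366, plus strand). Gm34157 lies beside Tle3 (chr9:61370491-61370740, minus strand), and D230017M19Rik lies among snRNA genes (chr1:72243743-72243992, plus strand). Each is written 5′ to 3′ on its own strand, and capitals mark every match, on either strand, to a fixed set of short motifs: AGATAA for GATA factors, with its variant TGATAA beside it, TGTGGT for RUNX factors, CAGCTG for E-box factors, with the E-box variant CATCTG beside it, AGGAAG for ETS factors and TGACTCA for AP-1 and NFE2. None of these motifs contains another.
Cirbp: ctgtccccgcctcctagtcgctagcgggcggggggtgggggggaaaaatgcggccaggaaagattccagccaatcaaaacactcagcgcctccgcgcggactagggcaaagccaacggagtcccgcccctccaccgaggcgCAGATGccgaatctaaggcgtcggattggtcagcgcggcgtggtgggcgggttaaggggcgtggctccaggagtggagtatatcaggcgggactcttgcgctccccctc
Ubash3b: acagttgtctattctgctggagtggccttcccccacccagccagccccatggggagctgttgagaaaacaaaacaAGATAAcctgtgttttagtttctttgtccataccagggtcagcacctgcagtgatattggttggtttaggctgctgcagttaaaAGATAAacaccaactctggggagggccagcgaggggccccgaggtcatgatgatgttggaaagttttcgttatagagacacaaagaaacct
Pisd: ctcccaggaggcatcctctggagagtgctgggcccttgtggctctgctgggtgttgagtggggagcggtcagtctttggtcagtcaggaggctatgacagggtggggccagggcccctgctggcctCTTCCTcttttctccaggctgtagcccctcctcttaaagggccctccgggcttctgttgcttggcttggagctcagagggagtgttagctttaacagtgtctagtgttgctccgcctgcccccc
Gm40374: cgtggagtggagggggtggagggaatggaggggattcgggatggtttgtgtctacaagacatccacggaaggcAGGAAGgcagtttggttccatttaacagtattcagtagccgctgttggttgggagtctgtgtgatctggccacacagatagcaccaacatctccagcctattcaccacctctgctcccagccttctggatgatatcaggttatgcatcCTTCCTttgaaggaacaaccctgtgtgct
Gm34157: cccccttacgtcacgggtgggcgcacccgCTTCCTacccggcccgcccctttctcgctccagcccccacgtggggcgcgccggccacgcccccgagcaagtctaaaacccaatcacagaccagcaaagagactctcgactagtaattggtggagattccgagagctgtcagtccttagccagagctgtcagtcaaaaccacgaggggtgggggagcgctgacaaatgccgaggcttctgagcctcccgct
D230017M19Rik: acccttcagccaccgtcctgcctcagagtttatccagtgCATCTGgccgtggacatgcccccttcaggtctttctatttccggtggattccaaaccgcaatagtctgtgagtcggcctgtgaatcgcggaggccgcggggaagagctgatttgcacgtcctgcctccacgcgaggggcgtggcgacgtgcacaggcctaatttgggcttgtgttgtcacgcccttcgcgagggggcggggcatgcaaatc

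Over the 39 windows that lay at least 125 bases inside a member, AGATAA on either strand was present in 5.13%, against 10.02% of all 32585 RefSeq windows of that length. TGATAA was present in 2.56% against 7.90%, and TGTGGT in 2.56% against 13.9%. CACCC, letters bound by KLF factors, was present in 79.5% against 52.1%, and CCCTC, letters within the CTCF motif, in 84.6% against 60.8%. AGGAAG was present in 35.9% against 29.6%, CATCTG in 23.1% against 14.4%, CAGCTG in 17.9% against 13.1%, and TGACTCA in 10.3% against 4.48%. These shares describe letters in start windows of a few members and were not tested. They were not adjusted for the content of G and C letters, which had a median of 52.4% over all 32585 windows. In the printed windows it was 65.6% (Cirbp), 48.8% (Ubash3b), 61.2% (Pisd), 52% (Gm40374), 63.2% (Gm34157) and 60.4% (D230017M19Rik). Other windows inside members ranged more widely, at least from 46% (LOC108169175) to 84.8% (Gm15327). The part of this content in the shares was not tested. The AGATAA matches of the Ubash3b window fell in a member whose summits held 17 and 21 fragments with CHD7 and 17 and 12 without it. Its knockout minus wild-type log2 difference was -0.30 (SE 0.19, adjusted p 0.730 by limma over 8697 regions). A link between the matches and this difference was not tested.

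On these chromosomes the wild-type lists held 11074 (replicate 1) and 12033 (replicate 2) peaks, and the knockout lists held 12431 and 11361. Total read depth was unknown. The commonest local background behind a peak, recovered from the deposited values, was 0.787 fragments per base in wild-type replicate 1 and 1.01 to 1.08 in the other libraries. Gata1, Klf1, Alas2, Epor and Tfrc, genes of the erythroid programme, each held 1 region called in all 4 libraries within 1 kb of the gene's span. Slc4a1, Hba-a1 and Hbb-bt, which rise late in red cell maturation, had 0 regions. With 0 regions at Chd7 itself, peak calls could not check which cells lack the gene.

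Most chains were short. There were 59 chains of 3 regions, 18 of 4, 7 of 5, 3 of 6 and 2 of 7, and the largest held 9 and 18. Chains spanned a median of 14.1 kb (range 1.77 to 39.2 kb), and a median of 11.4% of a chain's span was covered by its regions. The 252 gaps inside chains had a median of 5.01 kb and reached 12484 bp, and the smallest gap above the limit was 12569 bp. The member nearest to a gene end was 1008 bp away, and the farthest region left out for this reason was 1000 bp away. All 20 chromosomes held a chain, with at most 8 on one. In all, 68 members were called in exactly 2 lists, and 13 distal regions called in 1 list lay inside the chains' spans but were no members.

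**Figure D1:**
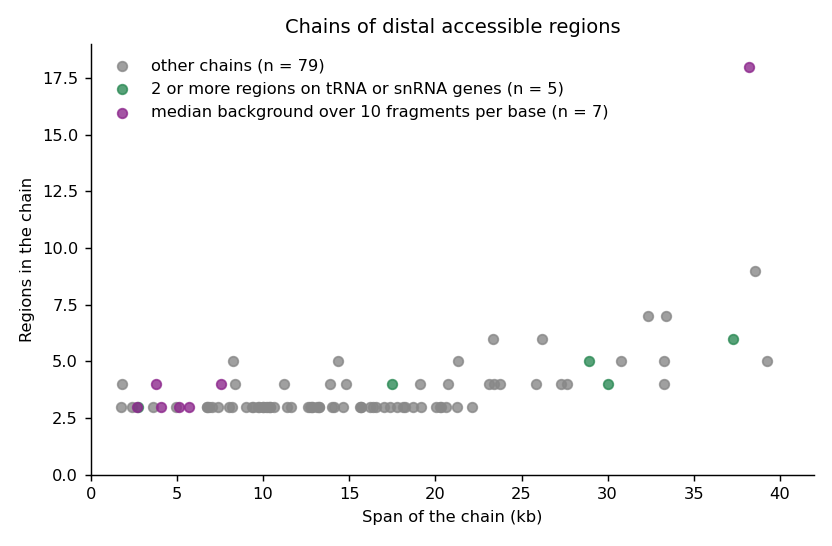
Span in kb (x axis) and number of regions (y axis) of the 91 chains, 1 point per chain, coloured by the kind of chain. The chain of 18 regions is of high background, and 59 chains sit at 3 regions over spans from 1.77 kb upward.

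The chains were of 3 kinds, a grouping made after the values were seen. In 7 chains with 38 regions, the median local background exceeded 10 fragments per base, against 2.02 at the median region of the 79 chains with neither mark. The chain of 18 regions, at chr9:3000026-3038255, was one of them: its median background was 97.7 fragments per base, its deposited fold enrichments ran from 1.86 to 3.99, and no protein-coding gene end lay within 100 kb. The others included a chain at chr17:39843058-39848783 with a background of 149.8 and one at chr2:98662213-98667360 with 57.4. In these places the pileups were high in every library, 372, 376, 372 and 371 fragments at the strongest chr2 region in wild-type replicates 1 and 2 and knockout replicates 1 and 2. Values of 4 libraries are given in that order from here on, as recovered fragments before any scaling. Reads of repeated sequence can pile up at such places, and how the authors placed reads with several matches is not given in the sources used here.

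In 5 chains with 22 regions, at least 2 regions lay on tRNA or snRNA genes, short non-coding genes that often come in near-identical copies, so that reads from one copy cannot be told from another. A chain between Mreg and Pecr, chr1:72225815-72255862, had an snRNA gene on each of its 4 regions, the third with summits of 32, 42, 30 and 30 fragments. A chain between Eapp and Snx6, chr12:54710013-54738949, had snRNA genes on all 5 regions. A chain at chr11:101641357-101658845 held 3, among them Rnu2-10, a U2 RNA gene of the spliceosome. A chain beside Shf, chr2:122375411-122378157, had a histidine tRNA gene on each of its 3 regions. Over all members, 20 of 343 (5.83%) overlapped a tRNA or snRNA gene or another small RNA gene of the table, against 1.34% of distal regions in pairs or alone.

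The fifth chain of this kind lay between Fcgr3, an Fc receptor of myeloid cells, and Cfap126, at chr1:171074369-171111664, with 11 tRNA genes in its span. Of its 6 regions, 4, 5, 5 and 0 were called in the 4 libraries. Knockout replicate 2 was the only library with no call there, while knockout replicate 1 had as many as wild-type replicate 2. Its region at chr1:171088533-171088905 held 15 and 14 fragments in the wild-type libraries and was called in neither knockout library. On tRNA genes elsewhere in the genome, 42, 47, 48 and 43 of 51 regions were called, so the absence in knockout replicate 2 was not seen at most other tRNA genes. With calls of 5 against 0 in the knockout libraries, the genotypes overlap and the value rests on 1 library.

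The 79 other chains held 283 regions, of which 53.7% lay inside a protein-coding gene. For all members this share was 45.2%, against 54.5% of paired and 58.1% of single distal regions. Of the members, 62.7% were called in all 4 libraries, against 53.1% of paired, 55.3% of single and 84.6% of the 7036 regions near gene ends. This share was 60.4% in the 79 other chains, 86.8% in high-background chains and 50% in small RNA chains. Strength is the percentile rank of a region's fold enrichment within a list, at its lowest among the libraries that called the region. Its median was 13.7 for members, 14.3 for pairs and 22.0 for single regions. By kind of chain, the median was 15.8 in the 79 other chains, above that of pairs, 15.3 in small RNA chains and 0.164 in high-background chains. By position in the chain, 62.1% of the 161 inner members and 63.2% of the 182 end members were called in all 4. Of the 91 chains, 87 had at least 1 region called in all 4 libraries and 17 had every region called in all 4. In 25 chains the strongest region was above the 50th percentile.

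Chains near genes of blood transcription factors are described first. Gene lists of 11 programmes were chosen with earlier results known, and a chain was linked to the genes it overlaps and to the nearest gene end on each side within 100 kb. Of 51 haematopoietic transcription factors, 4 were linked to a chain (7.84%), against 189 of 21887 protein-coding genes (0.864%). The same factors were linked to any distal region in 76.5% of cases, against 27.7% of all genes. No test of this difference was made.

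Cbfa2t3 encodes ETO2, a corepressor in complexes of TAL1 and GATA1, and its chain, chr8:122700514-122720770, began 1182 bp from the gene. The region nearest to the gene held 48, 44, 39 and 43 fragments and the farthest 39, 40, 42 and 30. Both were called in every library, and the values of the genotypes overlapped at the farthest region, while at the nearest the wild-type values lay just above the knockout ones. The middle region was called only in the libraries numbered 1, with 15 and 11 fragments. On the log2 scale the knockout minus wild-type differences at the outer regions were -0.08 (SE 0.21) and -0.07 (SE 0.20).

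Zfpm1 encodes FOG1, the cofactor that GATA1 needs in red cell and megakaryocyte development, and all 3 regions of its chain lay inside the gene, at chr8:122309153-122319806. The first region held 30, 28, 27 and 30 fragments. The third held 19, 23, 36 and 30, with both knockout libraries above both wild-type libraries. Its log2 difference of 0.71 (SE 0.18) had an adjusted p of 0.365 by limma over 8697 regions. The middle region held 14, 32 and 26 fragments in wild-type replicate 1 and the knockout libraries and had no call in wild-type replicate 2.

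Bach1 encodes a repressor that responds to haem, and its 3 regions lay inside the gene at chr16:87706183-87713547. The middle region held 18, 23, 26 and 24 fragments and the third 9, 20, 21 and 20, where wild-type replicate 1 alone was low. The log2 differences were 0.36 (SE 0.18) and 0.65 (SE 0.27). Ikzf1 encodes Ikaros, a zinc finger factor of lymphoid and other blood cells, and had 4 regions inside the gene, at chr11:11711832-11735561. Its second region held 12, 16, 12 and 15 fragments and the third 14, 22, 15 and 13. In these fragments the genotypes overlapped at both, while after centring on library medians both knockout values of the third were the lower (log2 difference -0.23, SE 0.20).

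Of 51 erythroid genes, 2 were linked to a chain (3.92%). Add2 encodes beta-adducin, which joins spectrin to actin in the red cell membrane skeleton, and its chain lay inside the gene at chr6:86094243-86104009. The first region held 14 fragments in each wild-type library and was called in neither knockout library. The third held 10, 16, 23 and 25 fragments, higher in both knockout libraries, with a log2 difference of 0.95 (SE 0.21, adjusted p 0.352 by limma). The middle region held 18, 14, 12 and 10, lower in both, with a log2 difference of -0.42 (SE 0.22), so the 3 regions of this chain did not move one way.

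Hbb-y, an embryonic beta-like globin gene, and the olfactory receptor gene Olfr66 flanked a chain at chr7:103860926-103877499. The region 7719 bp from Hbb-y held 23, 28, 19 and 20 fragments, both wild-type values above the knockout values (log2 difference -0.28, SE 0.19). The region nearest to Olfr66 held 10, 15 and 11 fragments in wild-type replicate 1 and the knockout libraries and was not called in wild-type replicate 2. The middle region held 9, 11 and 9 and was not called in knockout replicate 2.

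Among 28 chromatin remodellers, Chd2, a chromodomain helicase of the same family as CHD7, was the 1 linked to a chain. Its 4 regions lay outside the gene at chr7:73595135-73628384, and the first was 53389 bp from the gene's end. The strongest, at chr7:73618079-73618964, held 59, 74, 64 and 52 fragments, with the wild-type and knockout values overlapping. The second held 17, 22, 13 and 13, lower in both knockout libraries (log2 difference -0.46, SE 0.19). The fourth was called in the knockout libraries only, with 10 and 9 fragments.

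Cell cycle genes had 2 of 19 linked to a chain. At Ccnd3, the gene of cyclin D3, which is active in erythroid cell division, the region 2785 bp inside the gene held 33, 45, 21 and 31 fragments. Both wild-type values were above both knockout values, with a log2 difference of -0.49 (SE 0.25, adjusted p 0.626 by limma). At Cdk6, the kinase that D-type cyclins activate, all 3 regions lay inside the gene at chr5:3497545-3515327. Calls numbered 2, 1, 3 and 3, and the middle region was called in the knockout libraries only, with 13 and 11 fragments. The third Cdk6 region held 13, 12, 12 and 12.

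One granulocyte gene, Fcgr3 of 17, was linked to a chain, the tRNA chain above. None of the 37 cytokine signalling, 19 megakaryocyte, 10 mast cell, 15 stem and progenitor, 15 lymphoid and 12 housekeeping genes was, although 67.6% of the cytokine genes were linked to some distal region.

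**Figure D2:**
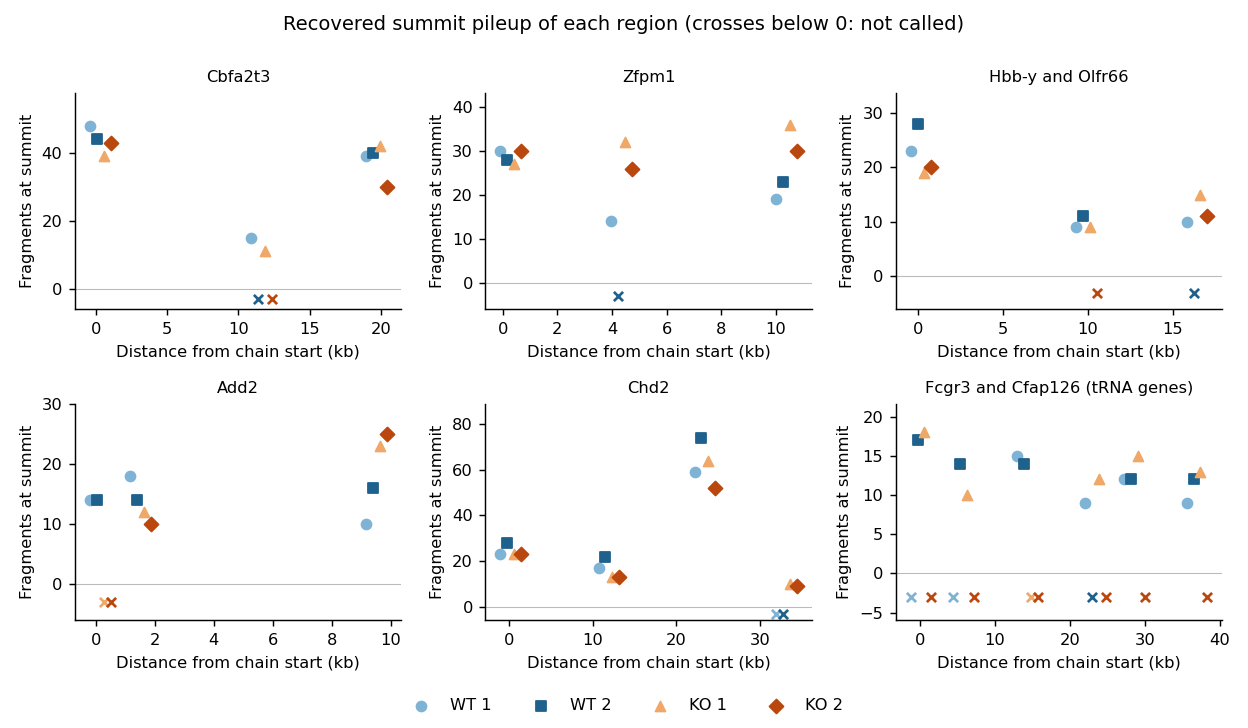
Fragments at the summit (y axis, linear) of each region against its distance from the start of its chain (x axis, kb) in 6 chains, 1 point per library, shifted sideways for legibility; crosses below 0 mark libraries without a call. At the third Add2 region the knockout points (23 and 25) lie above the wild-type points (10 and 16), and in the tRNA chain knockout replicate 2 has only crosses.

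The chains with most regions lay elsewhere. The chain of 9, chr6:47739831-47778393 between the predicted gene Gm40363 and Pdia4, was called in full in every library. Its gaps ran from 3751 to 5458 bp. Its second region held 63, 61, 75 and 69 fragments and its sixth 52, 51, 68 and 67, both knockout values above both wild-type values in each. The log2 differences over the chain ran from 0.06 to 0.46. Local background was 12.2 fragments per base at the second region and 2.24 at the last.

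Pisd, the mitochondrial enzyme that makes phosphatidylethanolamine from phosphatidylserine, had a chain of 7 at chr5:32713283-32746645. Its strongest region, outside the gene, held 77, 72, 84 and 72 fragments and was the strongest of all members at the 94.0th percentile of its weakest list. Its last region, inside the gene at chr5:32746210-32746645, held 18, 22, 9 and 9, and that region carries the Pisd start window printed above. Mid1, a microtubule-associated ubiquitin ligase whose mouse gene crosses the pseudoautosomal boundary of X, had 7 regions at chrX:169986842-170019169. There the fifth region held 83, 93, 88 and 81 fragments and the sixth 16, 26, 11 and 13.

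Among the chains of 5 or 6 regions, the one around Midn, Atp5d and Cirbp, chr10:80142155-80168343, had its strongest region at Cirbp, a cold-inducible RNA-binding protein. That region held 63, 73, 60 and 60 fragments and overlaps the Cirbp window printed above. Inside Ptpre, a protein tyrosine phosphatase, 6 regions were called 5, 6, 6 and 5 times. Inpp5d encodes SHIP1, a lipid phosphatase of blood cells, and its 5 regions lay within the gene at chr1:87626445-87659711. The middle one held 19, 34, 21 and 42 fragments, high in both replicates 2. The longest chain, chr12:32104459-32143695, lay between Prkar2b, a regulatory subunit of protein kinase A, and Pik3cg, the gamma catalytic subunit of PI3-kinase, with 27, 41, 30 and 29 fragments at its first region.

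**Figure D3:**
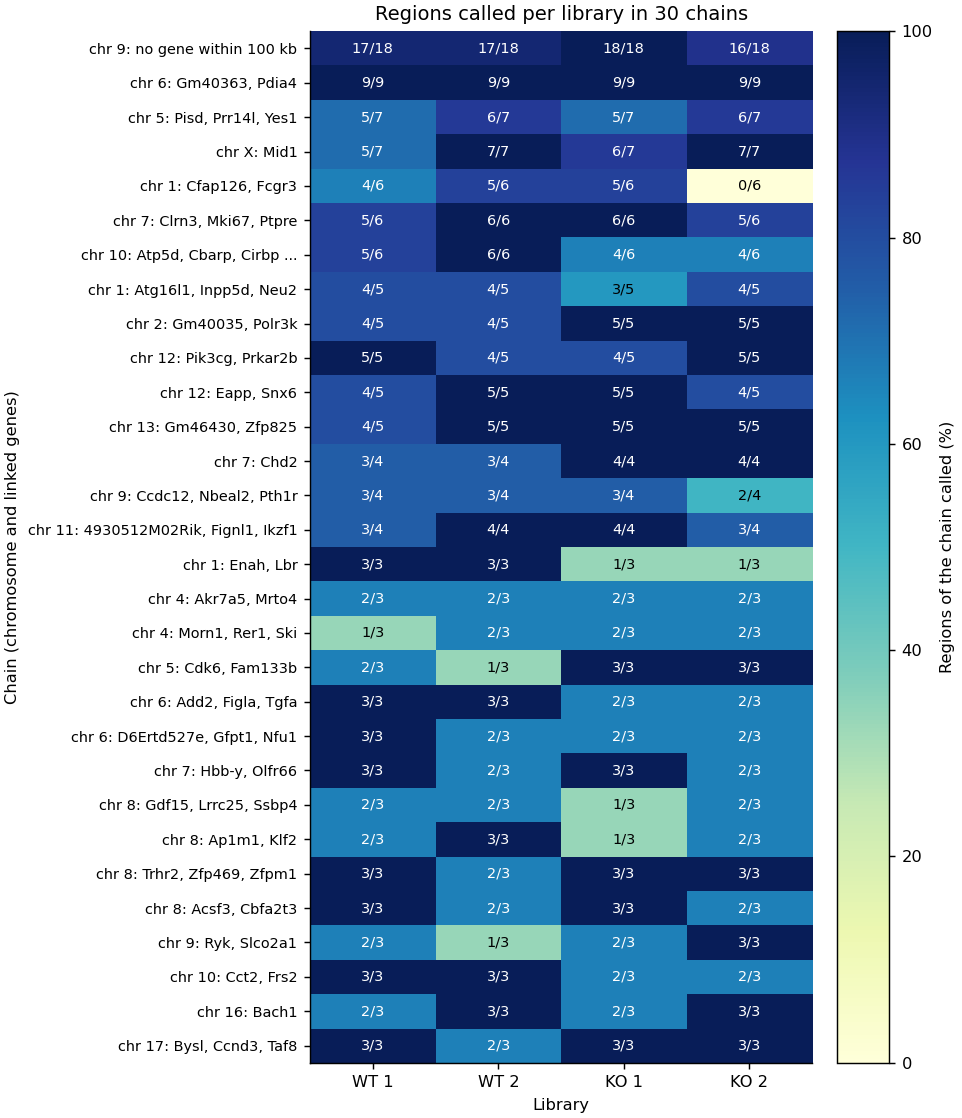
Regions called in each library (columns) for the 30 named chains (lines, by chromosome and linked genes), printed as called over total and coloured by percent. The tRNA chain shows 0 of 6 in knockout replicate 2, and the Enah and Lbr chain shows 3 of 3 in both wild-type and 1 of 3 in both knockout libraries.

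Between genotypes, the question is whether losing CHD7 changed accessibility at the clustered regions. Calls were close. The members called were 292, 306, 299 and 279, which is 85.1%, 89.2%, 87.2% and 81.3% of 343. Knockout libraries averaged 84.3% ± 4.12 (SD, n = 2) and wild-type libraries 87.2% ± 2.89 (SD, n = 2), a difference of -2.92 percentage points (exact two-sided permutation p = 0.667). The smallest p this design allows is 0.333. The calls counted here also chose the members, so this p adds no evidence on the genotypes. At the labelled 1 h the knockout library had 2.04 points more than the wild-type library and at 2 h it had 7.87 fewer, so the difference changed sign with the replicate. Distal regions in pairs or alone were called in 76.0%, 85.1%, 88.0% and 80.8% of cases.

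As a share of each list, peaks inside chains were 2.64% and 2.57% of the wild-type lists and 2.42% and 2.5% of the knockout lists. Both knockout shares were below both wild-type shares, by 0.142 percentage points on average (2.60% ± 0.0487 against 2.46% ± 0.0554, SD, n = 2, exact two-sided permutation p = 0.333, the smallest possible). The calls behind these shares also chose the members, so this p adds no evidence on the genotypes. The difference was -0.215 points at 1 h and -0.0682 at 2 h. It turned to 0.00134 without wild-type replicate 1 and to 0.0097 without knockout replicate 1.

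Knockout lists held more calls than wild-type lists at both labelled times in 4 chains and fewer in 8. In 9 chains the times went opposite ways, 40 were equal at one time, and 30 at both. The 4 were those near Gm40035 and Polr3k, in Cdk6, near Chd2 and in Ccdc186, the last outside the rule for naming. The 8 included the chains of Enah and Lbr, Add2, Ap1m1 and Klf2, Midn and Cirbp, and Cct2 and Frs2. Lbr encodes the lamin B receptor of the inner nuclear membrane and Enah an actin regulator, and the chain between them, chr1:181860603-181873865, was called 3, 3, 1 and 1 times. Its region nearest to Lbr held 28, 46, 24 and 21 fragments (log2 difference -0.57, SE 0.21, adjusted p 0.486 by limma). The other 2 held 9 and 13, and 10 and 11, fragments in the wild-type libraries and were called in neither knockout library, the 1 chain with 2 regions exclusive to a genotype.

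Regions called in both libraries of one genotype and neither of the other are the exclusive regions. Knockout-only members numbered 9 (2.62%), against a background of 3.46% of all regions called in at least 2 lists. Wild-type-only members numbered 20 (5.83%), against 2.88%. In pairs the numbers were 49 (5.66%) and 47 (5.43%), and among single distal regions 276 (7.36%) and 141 (3.76%). Near gene ends they were 81 (1.15%) and 137 (1.95%). Knockout-only was thus the more frequent kind among single regions and wild-type-only among clustered ones and near gene ends, a difference that was not tested. Among clustered regions the numbers were nearer each other with other gap limits. Knockout-only and wild-type-only members were 3 and 4 at 6 kb, and 28 and 33 at 25 kb. The exclusive members lay in 26 chains, 9 with a knockout-only and 19 with a wild-type-only region. With wild-type replicate 1 or 2 left out, so that absence is asked of 1 library, knockout-only members numbered 15 and 24, and with knockout replicate 1 or 2 left out wild-type-only members numbered 27 and 31. A call is a threshold, and a region without one can hold fragments below it.

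**Figure D4:**
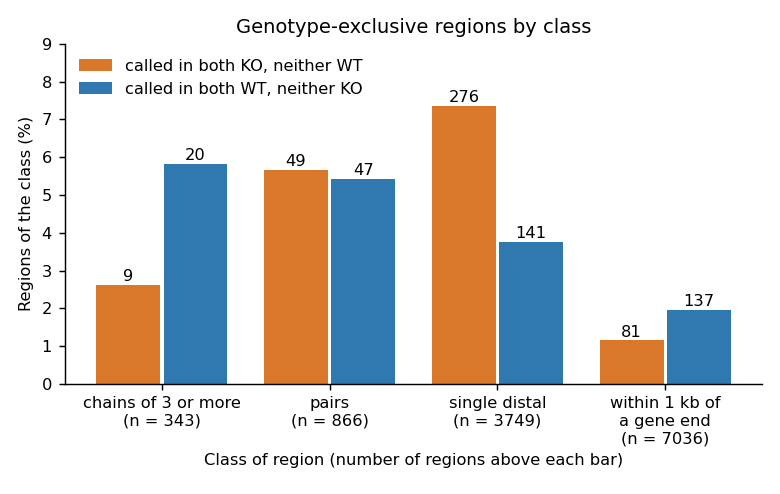
Percent of regions (y axis, from 0) called in both knockout and neither wild-type library, or the converse, in 4 classes of region, with the number of regions above each bar. Clustered regions show 9 knockout-only and 20 wild-type-only, and single distal regions show 276 and 141.

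The strongest wild-type-only members after the tRNA chain were weak to moderate peaks. In Frs2, an adaptor of FGF receptors, the region at chr10:117112578-117112927 held 12 and 16 fragments (deposited fold enrichment 6.84 and 7.80). In Ccdc12 the region held 15 and 21 fragments (6.20 and 6.43). Between Ap1m1, a clathrin adaptor subunit, and Klf2, a Kruppel-like factor of blood and endothelial cells, it held 11 and 13 (6.0 and 6.19), and in Gfpt1, the entry enzyme of the hexosamine pathway, 13 and 15 (5.79 and 5.97).

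Of the knockout-only members, the strongest lay 38122 bp from Ryk, a Wnt receptor, at chr9:102946429-102946889, with 16 and 18 fragments (fold enrichment 6.59 and 7.54). The others named by the rule held 17 and 15 fragments near Mrto4, a ribosome assembly factor, 15 and 12 near Lrrc25, 10 and 9 near Chd2, and 15 and 12 in Morn1. Near Mrto4 the next region, 1092 bp on, was wild-type-only with 12 fragments in each library. The Lrrc25 chain likewise held 1 region of each kind, its wild-type-only one near Ssbp4 with 15 and 14.

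Summit fragments were compared at the 8697 regions called in all 4 libraries with a recovered pileup, 215 of them members, by limma on log2(fragments + 1) centred on each library's median. The 60 members called in 3 lists and the 68 called in 2 could not enter. No region passed an adjusted p of 0.05 (0 of 8697, 0%), and the smallest adjusted p was 0.216 over all regions and 0.294 over members. At an unadjusted p under 0.05 there were 755 regions (8.68%) and 28 members (13.0% of 215). Higher in the knockout at this p were 20 of the 215 members, against 436 of 8697 regions (background 5.01%). Lower were 8 of the 215 members, against 319 of 8697 regions (background 3.67%), a share close to that over all regions. On this centred scale both knockout values were above both wild-type values at 65 members (30.2%, background 21.4%) and below at 30 (14.0%, background 17.3%). These balances turned round when fragments were scaled by the commonest background. At an unadjusted p under 0.05, 4 members were then higher and 16 lower (89 and 1081 of all regions), and the genotypes did not overlap at 22 members above and 66 below (10.2% and 30.7%, against 5.07% and 41.1% of all regions).

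The median log2 difference was 0.090 for members, 0.077 for other distal regions, -0.0027 near gene ends and 0.023 over all regions. It was above 0 at 150 of 215 members (69.8%), against 53.5% of all regions. Scaling by the commonest background in place of the median took the median of all regions from 0.023 to -0.21 and left 63 members (29.3%) above 0, against 19.7% of all regions, so the direction of these medians depends on the scaling. With that scaling the median was -0.140 for members and -0.150 for other distal regions, so both stayed above the median of all regions. The scalings differ mainly by a factor for each library, which moves all regions nearly alike. That members stayed higher was therefore largely set in advance and adds no evidence. At the 33 members of high-background chains the median-centred differences ran from 0.02 to 0.42, all above 0 and all among the 150.

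The member with the smallest p was the last region of the Pisd chain, where 18 and 22 wild-type fragments compared with 9 and 9 knockout fragments. Its log2 difference was -0.98 (SE 0.19, adjusted p = 0.294 by limma). Its start window is printed above and lies inside the gene. The next lower members were in the Mid1 chain (16, 26, 11 and 13), the Lbr region above, Senp7 (32, 34, 22 and 22) and Akap9 (27, 24, 16 and 17). In each, both knockout values were below both wild-type values, with log2 differences from -0.64 to -0.48.

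The higher members were led by the third Add2 region. Aff1, a scaffold of the super elongation complex, had 16, 19, 35 and 25 fragments at chr5:103742048-103742433 (log2 difference 0.81, SE 0.19, adjusted p 0.365 by limma). After the third Zfpm1 region came 21, 26, 41 and 32 fragments in Mbp and 14, 13, 27 and 18 in Tnrc6a, a protein of microRNA silencing (0.69 and 0.75). In all 5 both knockout values exceeded both wild-type values, and none passed the adjusted threshold. Neighbours differed between chains: the second Aff1 region held 21, 25, 21 and 15 and the second Tnrc6a region 14, 18, 14 and 16, while the middle Zfpm1 region was higher in the knockout libraries than in the 1 wild-type library that called it.

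**Figure D5:**
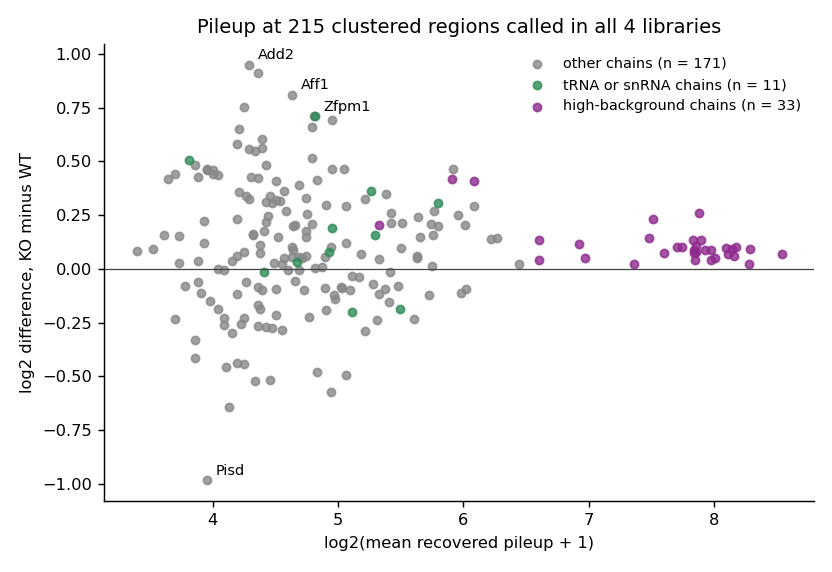
Knockout minus wild-type difference in centred log2(fragments + 1) (y axis) against log2(mean fragments + 1) (x axis) for the 215 members called in all 4 libraries, coloured by kind of chain. Points spread from -0.98 at Pisd to 0.95 at Add2 at low pileups and from 0.02 to 0.42 for the 33 members of high-background chains.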

How the data were processed

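ATAC-seq libraries of G1ER cells, 2 wild-type and 2 Chd7-/-, gave the data. The authors deposited 1 peak list per library, called on each sample separately. Per the submitters' processing notes, the tools were Bowtie2 2.2.1 and MACS2 2.1.0. The sources used here do not give the calling threshold, the treatment of duplicates or any read shift for the transposase. Deposited with every peak are a score, a fold enrichment (a ratio of pileup to local background at the summit), and −log10 p and −log10 q values, which are the authors' own. Positions are GRCm38, per the labels' build names, printed from base 1.

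Fold enrichment and the Poisson p together gave the whole-number pileup and the background of 99.99% of peaks (tolerance 0.001 in −log10 p), if the caller did not rescale. Depth is unknown, so the commonest background stood in for it. Union regions matched bedtools 2.31.1 merge (15313). Genes came from a RefSeq GRCm38.p6 table, and Ahsp and Tpsab1 of the lists were not in it. The 2 mitochondrial peaks per list and those on chromosome Y were left out.

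Pileups were compared with limma 3.58.1 (R 4.3.3) over the whole table with Benjamini-Hochberg adjustment, and single values by exact permutation over 6 label assignments. Other steps used Python 3.11.15, pandas 2.3.3 and scipy 1.17.1, and the steps were tested on simulated data. Named chains were the 12 with most regions, up to 4 per gene list, those with 2 exclusive regions of one kind, and those of the 5 strongest exclusive members of each kind, with the 5 members of smallest limma p in each direction. Alternatives were gaps of 6 and 25 kb, 2.5 kb from gene ends, calls in all 4 lists, −log10 q of at least 5, lists of equal length, 250 bp summit windows, other scalings, a replicate block and leaving out single libraries. Leaving out high-background chains was added after the data were seen. Members, lists and tests were chosen with earlier results of these data known. The motif search planned for summits of members was run on RefSeq start windows only, since no genome was used here.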

Additional observations from a re-analysis of the deposited data

Results flagged for a closer look

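The percent of members called differed between the genotypes in opposite directions at the labelled times: knockout minus wild type was 2.04 percentage points at 1 h and -7.87 at 2 h. Over the 79 chains without high background or small RNA genes the values were 0.707 and -7.07. With 1 library per genotype and time, this difference was not tested, and its part in the tRNA chain, where knockout replicate 2 had 0 of 6 regions, was not tested either. The lists also held peaks on chromosome Y, which no comparison used: 10 and 10 in the wild-type and 12 and 15 in the knockout libraries.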

How the results depend on the processing

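The number of chains and regions follows the rule. A gap of 6 kb left 39 chains and 145 regions (3 knockout-only, 4 wild-type-only), a gap of 25 kb gave 177 and 643 (28 and 33), a −log10 q of at least 5 gave 58 and 225 (5 and 13), and calls in all 4 lists gave 29 and 115. The difference in the share of peaks inside chains reversed to 0.00358 with a gap of 6 kb and to 0.0301 with the stricter q, and that in the percent of members called reversed to 1.72 with a gap of 6 kb; the cause was not tested. Distances over 2.5 kb from gene ends, equal list lengths, 250 bp summit windows and removal of high-background chains kept the counts within 1.5-fold and both differences negative, but often smaller: the share difference was -0.0736 at 2.5 kb and -0.0452 with equal lists, and the percent-called difference -1.41 at 2.5 kb and -1.39 with summit windows.

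Leaving out each library gave 65 to 80 chains, 249 to 303 regions, 0 to 24 knockout-only (24 without wild-type replicate 2, 15 without replicate 1) and 0 to 31 wild-type-only members (31 without knockout replicate 2). The counts of 0 follow from the rule, since 1 remaining library of a genotype cannot make 2 calls. The difference in share ran from -0.186 to 0.0097 (0.00134 without wild-type replicate 1), and that in percent called from -2.36 to 1.55, reversed without wild-type replicate 2.

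By limma, scaling by background gave 70 regions past the adjusted threshold, 65 lower and 5 higher in the knockout, among them 1 member, the last Pisd region (-1.21, adjusted p 0.00251, against 0.160 to 0.847 in the other alternatives that held it; the stricter q left it out). The replicate block gave 2 regions and 0 members. All other alternatives gave 0. Same-numbered libraries share a number and a labelled time, and their deviations had a correlation of 0.00207. The 10 members named by limma kept their direction in 109 of 109 alternative values. They were picked for the smallest p in each direction from the same libraries, so this was largely set by the choice. Of the 30 named chains, 8 kept their number of regions within 1.5-fold with a gap of 6 kb and 19 with the stricter q. Total depth is unknown, and calls of weak regions are limited by it; the lowest background was that of wild-type replicate 1.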
